A study of Mus musculus with 34 samples.

Results

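Mesp1 and Mesp2 are neighbouring mouse genes on chromosome 7 that encode a pair of related basic helix-loop-helix transcription factors. Open chromatin around them was described from ATAC-seq, in which the Tn5 transposase cuts and tags accessible DNA. The members are the summits, each marking the base where the signal of a called peak, or of a sub-peak, is greatest, that lie between 50 kb below and 50 kb above the joint interval of both genes in the mm10 build (chr7:79742241-79863431, 121191 bp). All 19 deposited summit lists were used, and summits within 250 bp of each other were joined into 1 position. This gave 109 summits of 707465 in all, and 16 positions of 156849. The locus was chosen by its summit counts in the floxed embryoid body lists with and without 4-hydroxytamoxifen (4OHT), so that contrast is a description here and carries no test.

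The study holds 34 samples in 17 groups of 2, with 50000 cells per reaction. The cells were embryonic fibroblasts (MEF), or embryoid bodies (EB), which are clumps of embryonic stem cells left to differentiate. The labels name the fibroblasts as carrying iHA-Etv2, which doxycycline induces; Etv2 is an ETS factor that specifies endothelial and blood cells. MEF without knockdown were taken at day 0 without doxycycline, at days 1, 2 and 7 with it, and at day 7 with it as Flk1+ cells; Flk1 is a receptor of early mesoderm and endothelium. MEF with Brg1 knockdown were taken at day 0 without doxycycline and at days 1, 2 and 7 with and without it. Brg1 is the ATPase of the SWI/SNF chromatin remodelling complex. EB at 12 h were left without doxycycline, given it, or given it and taken as Flk1+. The titles of these EB also carry D25, which the labels do not explain, so 12 h is not read as their age. The Brg1-floxed EB were taken at day 4, and both of their groups received doxycycline; 1 of these groups also received 4OHT. For 15 groups both replicates name 1 summit list, so these groups have 1 value each and no replicate error, while the 4 floxed samples have a list each. The labels do not say how the floxed allele was recombined, how Brg1 was knocked down or, for the floxed samples, whether the replicates are separate cultures, and loss of Brg1 was not measured from these lists.

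Mesp1 is switched on in nascent mesoderm at the primitive streak, downstream of the T-box factors T and Eomes and of Wnt and Nodal signals, and marks the progenitors of heart and vessels. Mesp2 acts later in the presomitic mesoderm, where Tbx6 and Notch signalling drive it and where it places the boundaries between somites. Their other neighbours are Anpep, which encodes a membrane aminopeptidase, Wdr93, which encodes a WD-repeat protein, and Pex11a, which encodes a factor of peroxisome division.

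The RefSeq promoter table (GRCm38.p6, the assembly behind mm10) held all 5 protein-coding genes of the window. The 250 bases before each start are printed for Mesp1 and Mesp2, whose starts were called in the floxed EB with and without 4OHT, and for Anpep, whose start was called only without it. Capitals mark E-boxes (CANNTG, the core bound by basic helix-loop-helix factors), a TCF/LEF site (CTTTGAT, bound by the factors of Wnt signalling) and a T-box half-site (AGGTGTGA), searched on both strands. Mesp1 lies on the minus strand, and its stretch is chr7:79793591-79793840. Mesp2 lies on the plus strand, and its stretch is chr7:79810477-79810726. Anpep lies on the minus strand, and its stretch is chr7:79848211-79848460.
Mesp1 upstream: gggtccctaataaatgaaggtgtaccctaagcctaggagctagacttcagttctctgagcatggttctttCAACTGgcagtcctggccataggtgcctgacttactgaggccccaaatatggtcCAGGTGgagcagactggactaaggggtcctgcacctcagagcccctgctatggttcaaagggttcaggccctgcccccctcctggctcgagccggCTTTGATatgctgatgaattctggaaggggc
Mesp1 first bases: ccgctTCACACCTagggctc
Mesp2 upstream: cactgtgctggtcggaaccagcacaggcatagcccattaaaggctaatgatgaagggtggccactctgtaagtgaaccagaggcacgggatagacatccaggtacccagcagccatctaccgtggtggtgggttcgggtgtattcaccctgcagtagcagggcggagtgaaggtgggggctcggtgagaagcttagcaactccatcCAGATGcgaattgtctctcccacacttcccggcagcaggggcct
Anpep upstream: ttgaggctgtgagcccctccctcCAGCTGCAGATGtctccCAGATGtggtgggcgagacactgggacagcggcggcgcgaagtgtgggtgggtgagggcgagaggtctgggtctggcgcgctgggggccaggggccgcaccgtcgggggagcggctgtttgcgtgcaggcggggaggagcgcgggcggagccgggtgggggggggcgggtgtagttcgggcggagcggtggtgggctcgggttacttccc

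Positions are counted from the start, with negative values upstream, over the 300 bases that the table holds for each start (250 before and 50 after). In Mesp1 the TCF/LEF letters began at −31, and they occur in 3.73% of all 32851 promoters of the table. The T-box letters lay on the minus strand from position 6, just after the start, and occur in 1.28% of all promoters. The Mesp1 E-boxes began at −180 and −126, and 72.3% of all promoters hold this short pattern. The Mesp2 promoter had E-boxes at −44 and 39, both also matches of CATNTG, which 39.4% of promoters hold, and no T-box, TCF/LEF or ETS match in this window (CCGGAAG or, as a second form, ACAGGAA). Anpep held E-boxes at −227, −221 and −210, of which the first and second lie end to end. No promoter printed had an ETS match. The promoters of Pex11a and Wdr93 overlap and share the same CCGGAAG bases, at −16 from the Pex11a start and −8 from the Wdr93 start (8.86% of all promoters). The ratio of observed to expected CpG was 0.174 in Mesp1, at percentile 24.7 of all promoters, 0.403 in Mesp2 (percentile 51.6) and 0.810 in Anpep (percentile 80.0). The Mesp1 start thus lay among the CpG-poor promoters and the Anpep start among the CpG-rich ones. Of the other motifs searched, the SMAD letters CAGAC lay at −117 in Mesp1 and at −146 and −140 in Anpep, and 49.6% of all promoters hold them. The RBPJ letters TGGGAA (25.6% of all promoters), the GATA letters AGATAA (11.2%) and the AP-1 letters TGANTCA (7.81%) were in none of the 3 promoters. The shorter T-box form GGTGTGA (3.98%) was found only inside the longer one, in Mesp1. These matches are letters only, and the summits at the Mesp1, Mesp2 and Anpep starts all lay after the start, outside the upstream stretches printed.

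The lists differ in length, and a longer list offers more calls everywhere. The 3 EB lists from 12 h held 85498 summits without doxycycline, 77987 with it and 58004 in Flk1+ cells, of which 11, 10 and 8 lay in the window. The floxed lists without 4OHT held 31436 and 23823 summits, with 10 and 8 in the window. The floxed lists with 4OHT held 17946 and 20229 summits, with 3 and 3 in the window. Per 10000 summits of its list, the window took 3.18 and 3.36 in the floxed EB without 4OHT, 1.67 and 1.48 with it, and between 1.28 and 1.38 in the EB from 12 h. The 12 MEF lists held between 11188 and 62028 summits, with 1 to 8 in the window. The score deposited with each summit is a −log10 q value; it grows with depth, so it is read only within its own list. In bulk cells, a site open in fewer cells and a site less open in each cell cannot be told apart.

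**Figure D1:**
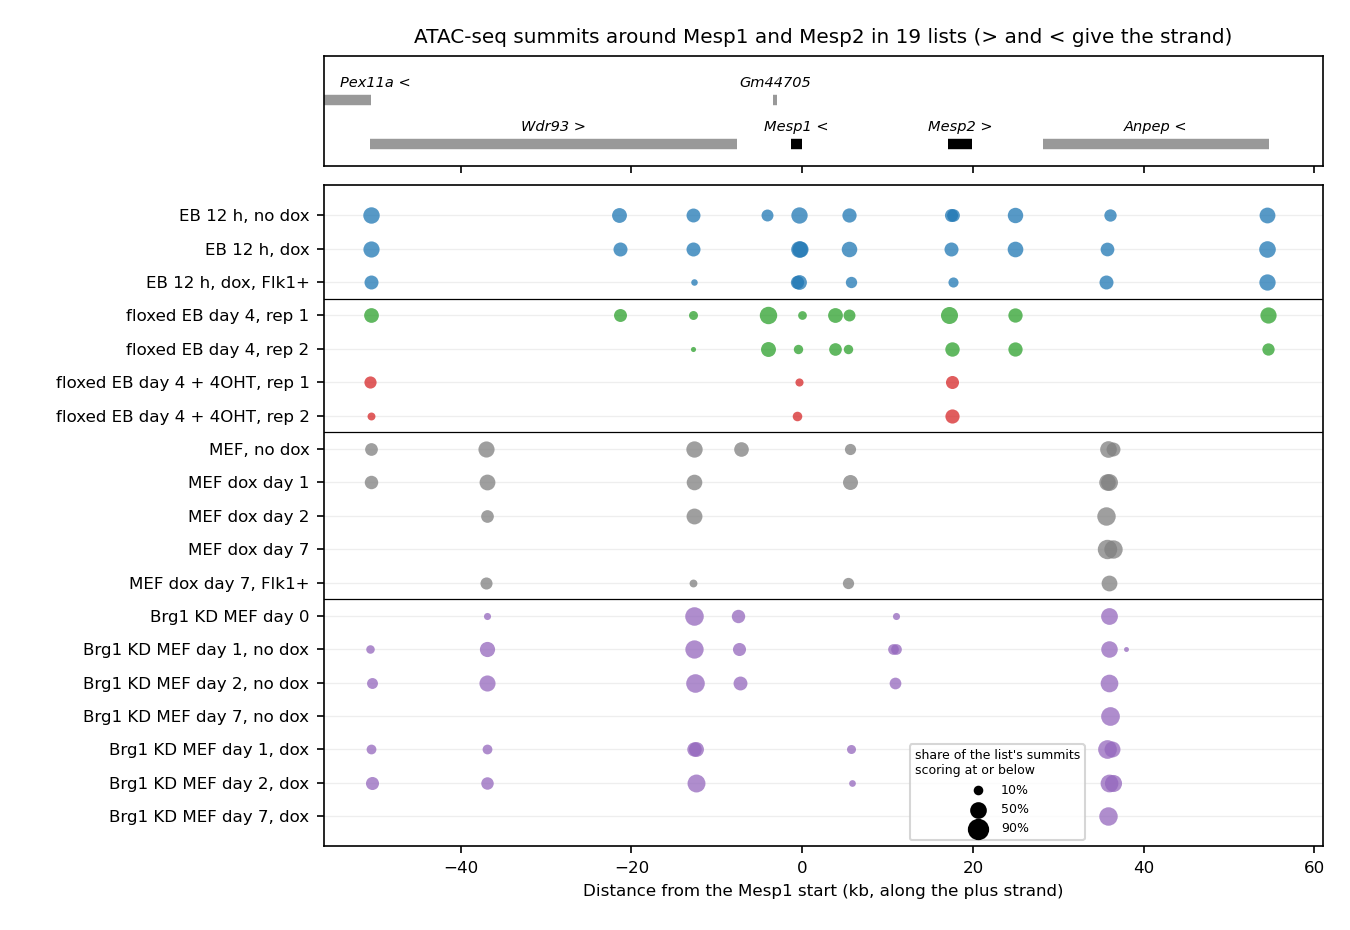
Every summit of the window in each of the 19 lists, by its distance in kb from the Mesp1 start along the plus strand, with the genes above; each row is a list, and a larger point has a higher score within its own list. The floxed EB with 4OHT show 3 points each, at the Pex11a and Wdr93 starts, in Mesp1 and in Mesp2.

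The Mesp1 gene itself carried a position called in all 7 EB lists and in none of the 12 MEF lists. Its summits lay between 79792964 and 79793521, inside the 1350-bp gene and 69 to 626 bp after its start. The score was 20.65 in EB without doxycycline, up to 23.44 with it and up to 9.71 in Flk1+ cells. In the floxed EB it was 3.20 and 4.00 without 4OHT, and 3.94 and 4.64 with it. In whole lists, both floxed groups thus called Mesp1, with scores among the low ones of each list: 15.1% and 18.1% of summits without 4OHT scored as low or lower, against 12.5% and 19% with it.

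The Mesp2 start was called in the same kinds of list. Its summits lay 297 to 577 bp after the start, inside the gene, in all 3 EB lists from 12 h, in the second floxed replicate without 4OHT and in both with it. The scores there were 8.21 without 4OHT, and 9.11 and 11.39 with it. The first floxed replicate without 4OHT instead had a summit 8 bp after the start, at 79810735, with a score of 15.42. That summit stood 289 bp from the nearest one of the other position, just past the joining distance, and the widest gap that was joined was 233 bp. Counting both positions together, the Mesp2 start was called in all 4 floxed lists, and no MEF list called it.

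The starts of the flanking genes were not called in the same lists. The Anpep start was called in all 3 EB lists from 12 h, with scores of 17.40 without doxycycline, 22.99 with it and 14.51 in Flk1+ cells. It was called in both floxed EB without 4OHT, with scores of 12.38 and 5.85, and in neither with 4OHT, and no MEF list called it. The position over the Pex11a and Wdr93 starts, whose genes overlap, was called in 12 lists, among them all 3 EB lists from 12 h, the first floxed replicate without 4OHT (8.63) and both with 4OHT (7.65 and 3.29). It was therefore the most widely called start of the window.

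Between the genes lay 4 of the 6 positions called in both floxed EB without 4OHT and in neither with it; the other two were the Anpep start and a position inside Wdr93. The first was 4.05 kb downstream of the Mesp1 start, beyond the gene's end (79789493 to 79789578), with scores of 17.28 and 9.05 in the floxed EB without 4OHT. The 17.28 was the highest score of the window in its list, and the position was otherwise called only in EB at 12 h without doxycycline, with a score of 6.42. A position 3.85 kb upstream of Mesp1 (79797396 to 79797494) was called in both floxed EB without 4OHT, with scores of 8.82 and 6.27, and in no other of the 19 lists. Over all positions called in both of these lists, 2.43% were in no other list. The neighbouring position 5.60 kb upstream of Mesp1 (79798950 to 79799424) had scores of 5.41 and 4.04 without 4OHT and was also called in all 3 EB lists from 12 h, in 3 MEF lists without knockdown and in 2 with it. A position 7.81 kb downstream of the Mesp2 start (79818506 to 79818570), between Mesp2 and Anpep, had scores of 8.04 and 7.99 without 4OHT. At 12 h it was called without doxycycline (15.63) and with it (16.67), and not in Flk1+ cells. None of these 4 positions had a summit in either list with 4OHT.

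Within Wdr93, a position 12.7 kb downstream of the Mesp1 start (79780757 to 79781116) was called in 14 lists of all kinds except the floxed EB with 4OHT. Its floxed scores without 4OHT were low, 3.43 and 2.12, and 16.1% and 2.24% of those lists scored as low or lower. The gene table gives gene intervals without exons, so whether positions within genes are exonic or intronic was not determined. A second Wdr93 position, 21.4 kb from Mesp1, was called in the first floxed replicate without 4OHT (6.41) and in the 2 EB lists from 12 h not labelled Flk1+. It was in 1 of the 2 floxed lists only and is not counted among the positions of both.

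**Figure D2:**
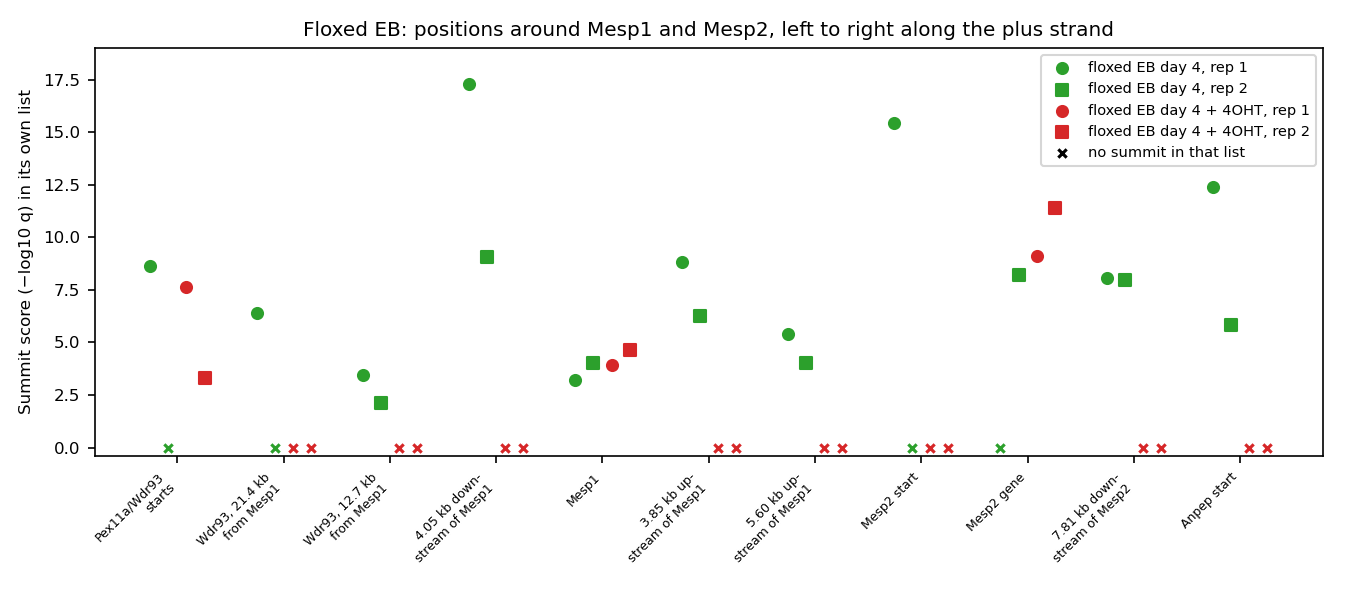
Summit score (−log10 q, vertical axis) in the 4 floxed EB lists at the 11 positions called in any of them, in order along the plus strand; a cross at 0 means no summit in that list. The points with 4OHT stand only at the Pex11a and Wdr93 starts, in Mesp1 and in Mesp2, and scores compare only within a list.

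In total 7 positions were called in both floxed EB without 4OHT, and 6 of them (85.7%) were in neither list with 4OHT, against 23.6% of all positions treated the same way (4790 of 20316). This contrast chose the locus, so the share is given as a description. The 7 leave out the Mesp2 start, whose summits without 4OHT fell just past the joining distance, in separate positions. Counted as 1 start, it was called in all 4 floxed lists and would lower this share and the one near starts below. Over 1 kb from any start, 5 of 5 positions of the window were not called with 4OHT, against 39.6% of all such positions (4026 of 10173). Within 1 kb of a start the count was 1 of 2, the Anpep start, against 7.53% (764 of 10143). The promoter table lacks some genes. In an alternative added after seeing the data, positions within 1 kb of either end of any protein-coding gene were also set aside; the count was again 5 of 5, the position inside Wdr93 among them, against 48% of all (3745 of 7805). In the other direction, 0 of 3 positions called in both lists with 4OHT were absent from both without it, against 4.80% of all (760 of 15817). All 3 positions called in both lists with 4OHT lay within 1 kb of a start, against 56.6% of all positions of both these lists. Without 4OHT this was 2 of 7, against 49.9%, again with the divided Mesp2 start left out.

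The lists with 4OHT are shorter and their median score is higher, 12.3 and 12.5 against 8.63 and 8.53, so the comparison was repeated with each list reduced to its highest-scoring summits, as many as in the shortest of the 4. The score limits this set were 7.06 and 4.58 without 4OHT and 1.31 and 3.29 with it. The window then kept 6 and 5 of its summits without 4OHT, against 3 and 3 with it. Of the positions, 4 were in both lists without 4OHT and 4 of 4 were in neither with it, against 14.3% of all (2131 of 14852). Over 1 kb from any start this was 3 of 3, against 29.5%, and within 1 kb of a start it was 1 of 1, the Anpep start, against 4.22%. The Mesp2 start, divided over separate positions, is not in these counts, although its summits passed the limits in all 4 lists. Its scores were 15.42 and 8.21 without 4OHT, and 9.11 and 11.39 with it. In the other direction, 1 of the 3 positions in both lists with 4OHT was then in neither without it, against 13.8% of all (2130 of 15457). This was the Mesp1 position, whose scores of 3.20 and 4.00 without 4OHT fell under the limits of those lists, while its 3.94 and 4.64 with 4OHT did not. With a score of at least 5 in both lists without 4OHT, a limit chosen after seeing the data, 3 of 3 positions over 1 kb from any start were not called with 4OHT, against 30.5% of all (1998 of 6551). Within 1 kb of a start this was 1 of 1, the Anpep start, against 4.32%, again without the Mesp2 start, whose scores all passed this limit.

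**Figure D3:**
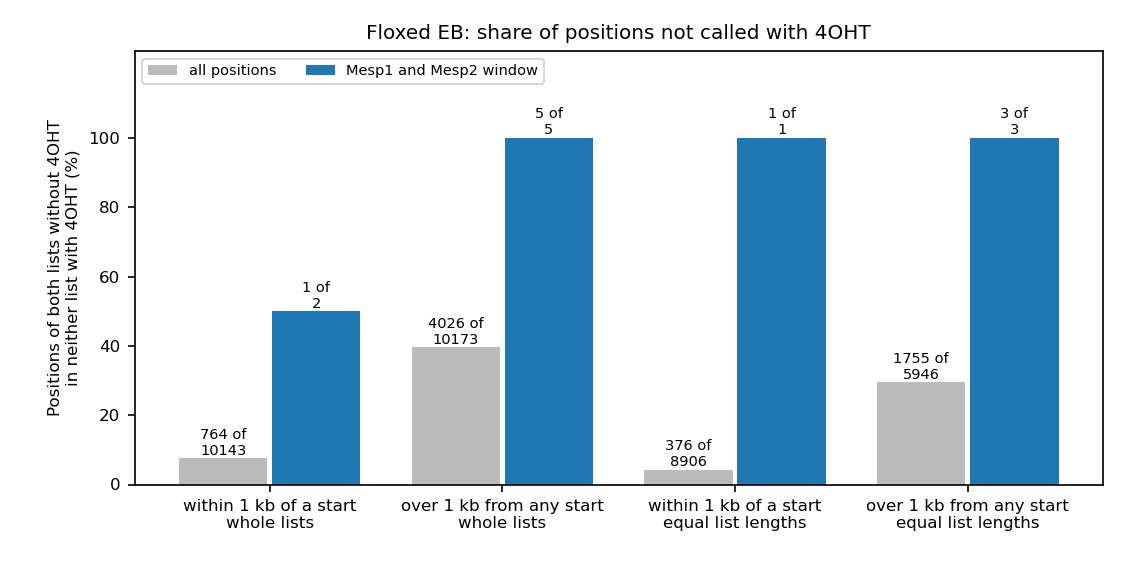
Share (vertical axis, percent) of the positions called in both floxed EB lists without 4OHT that were in neither list with 4OHT, for all positions (grey) and for the window (blue), with whole lists and with lists of equal length. Counts stand above the bars. Away from starts, the window's share was 5 of 5 with whole lists and 3 of 3 with equal lengths. The Mesp2 start, divided over separate positions but called in all 4 floxed lists, is in none of the window's bars.

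Such a share was uncommon among genes with as many positions around them. Of 1940 protein-coding genes with at least 6 positions of both lists without 4OHT within 50 kb, 4 genes (0.206%) had a share not called with 4OHT as high as that of the window. Mesp2 and Anpep were among these, with the same 6 of 7 positions, which leave out the divided Mesp2 start. The others were Cntnap2 (6 of 6), which encodes a neuronal adhesion protein, and Pknox2 (9 of 10), which encodes a homeodomain factor. Mesp1, whose own 50-kb window stops short of the Anpep start, was not among the 4 genes. The Mesp window was chosen for this pattern, so its place in this order is no support for it.

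The 6 positions not called with 4OHT were not alike in the other lists. A knockdown MEF list called 2 of the 6, the Wdr93 position 12.7 kb from Mesp1 and the one 5.60 kb upstream of it, against 28.1% of all 4790 such positions. Of the 7 positions of both floxed lists without 4OHT, 6 were also called in at least 1 EB list from 12 h; the exception was the position 3.85 kb upstream of Mesp1, and 3.30% of all positions were such exceptions. The floxed lists and those from 12 h differ in labelled time, genotype and processing form, which cannot be told apart. The Mesp1 and Anpep starts were in all 3 EB lists from 12 h, in both floxed lists without 4OHT and in no MEF list. This made 2 of the 4 positions that all 5 of those EB lists shared, against 22.2% of all such positions. The Mesp2 start, divided over separate positions, is left out of this count.

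Markers of cell types were counted as summits within 50 kb of each gene, as a check of the labelled cells. The 4 pluripotency and epiblast markers (Pou5f1, Sox2, Nanog, Dppa4) together had 12 to 14 summits in the floxed EB without 4OHT and 11 to 14 with it, against 37 to 51 in the EB from 12 h. Dppa4 was at 0 in both lists with 4OHT and in 1 of those without it. The 3 cardiac markers (Myh6, Tnnt2, Nkx2-5) had 10 and 10 without 4OHT, against 3 to 5 with it. Tnnt2 had 5 and 5 against 1 and 0. Myh6 (4 and 3 against 3 and 3) and Nkx2-5 (1 and 2 against 1 and 0) overlapped between the groups. The 4 endothelial markers (Kdr, Cdh5, Tek, Pecam1) had 12 to 18 without 4OHT and 7 and 7 with it. The 4 fibroblast markers (Col1a2, Prrx1, Twist2, Thy1) had 7 to 12 without 4OHT and 2 to 3 with it, where Col1a2 and Twist2 were at 0. The summed levels of 3 of the 4 marker lists were thus lower with 4OHT along with the Mesp window, and their part in the result was not tested. Within these sums, Tek and Prrx1 also overlapped between the groups. The lists with 4OHT are shorter, and 29.5% of all protein-coding genes with summits had fewer in both samples with 4OHT. In MEF, Sox2 and Dppa4 were at 0 in all 12 lists, but Pou5f1 had 1 to 8 summits and Nanog 1 to 9. The fibroblast markers ranged from 1 to 36 summits without knockdown and from 1 to 31 with it, against 18 to 21 in the EB from 12 h. The cardiac markers had 2 to 18 and the endothelial markers 6 to 23 in MEF without knockdown, and 4 to 9 and 4 to 12 with it. The fibroblast, cardiac and endothelial sums thus overlapped between EB and MEF lists and do not tell these cells apart.

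Doxycycline in EB at 12 h went with few differences in the window. The transgene was named above for the fibroblasts only, so the EB differences are given for doxycycline. With doxycycline, 1 of the 10 positions called without it was absent, the one 4.05 kb downstream of Mesp1, against 29.8% of all positions. No position was added, 0 of 9, against 19.9% of all. In the Flk1+ cells 3 of 10 were absent, against 45.6% of all. These were the 4.05 kb position, the one 7.81 kb downstream of Mesp2 and the Wdr93 position 21.4 kb from Mesp1. Again 0 of 7 were added, against 15%. The Mesp1, Mesp2 and Anpep starts were called in all 3 lists. Both comparisons share the 1 list without doxycycline.

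EB and MEF lists shared some positions of the window and not others. Of 12 positions called in any EB list, 8 were in no MEF list, against 68.1% of all EB positions. Of 8 positions called in any MEF list, 4 were in no EB list, against 64% of all MEF positions. These shares are near those of the whole lists. The positions shared by both kinds were 4: the Pex11a and Wdr93 starts, the Wdr93 position 12.7 kb from Mesp1, the one 5.60 kb upstream of Mesp1, and one within Anpep.

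The position within Anpep (79829175 to 79830048) was called in all 12 MEF lists and all 3 EB lists from 12 h and in none of the 4 floxed lists. In MEF its best score was 18.34 without doxycycline, 15.62 at day 1, 15.68 at day 2, 24.23 at day 7 and 9.57 in Flk1+ cells. Of the 8 MEF positions it alone was in all 12 lists, against 3.78% of all MEF positions. Of the positions in all 12 MEF lists, 15.1% were in no floxed list, as this one was. Of the 7 positions in all 3 EB lists from 12 h, it was also the 1 that neither floxed list without 4OHT called, against 37.8% of all. The span of this position is 874 bp, so it may hold more than 1 site.

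A MEF position 7.33 kb downstream of the Mesp1 start (79786121 to 79786399), between Wdr93 and Mesp1, was called only without doxycycline. It was in 4 of the 5 MEF lists without doxycycline, the exception being Brg1 knockdown at day 7, and in 0 of the 7 with it. The score was 10.90 in MEF at day 0, 6.15 in knockdown MEF at day 0, 5.94 at day 1 and 6.21 at day 2. It was 1 of 4 positions in at least 4 of the lists without doxycycline; of all such positions, 1.69% were in none of the lists with doxycycline (376 of 22221). The pattern was picked out after the values were seen. No EB list called this position. A further MEF position, in Wdr93 36.9 kb from Mesp1, was called in 4 lists without knockdown and 5 with it, on both sides of induction.

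In MEF without knockdown, all induced lists were set against 1 uninduced list, which they share. At day 1, 1 of 6 positions was absent, the one 7.33 kb downstream of Mesp1, against 36.4% of all. At day 2 this was 3 of 6 (66.1% of all), at day 7 it was 5 of 6 (79.5%) and in Flk1+ cells at day 7 it was 2 of 6 (63.9%). The day 7 list left only the position within Anpep. Positions added were 0 of 5 at day 1 (16.8% of all), 0 of 3 at day 2 (12.8%), 0 of 1 at day 7 (21%) and 0 of 4 in Flk1+ cells (19%). The absent share lay close to that of the whole lists at day 7, and below it at day 1, at day 2 and in Flk1+ cells. The whole lists hold 26217 summits at day 2 and 18418 at day 7, against 62028 uninduced. No induced MEF list had a summit in Mesp1 or Mesp2.

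In MEF with Brg1 knockdown, each day had its own list without doxycycline. At day 1, 3 of 7 positions were absent with doxycycline, against 41.7% of all. These were the one 7.33 kb downstream of Mesp1, a position 6.31 kb upstream of Mesp2, and a single summit in Anpep with a score of 1.67. At day 2, 2 of 6 were absent, the first and second of these, against 38.2%. The position 5.60 kb upstream of Mesp1 was added at both days, 1 of 5 against 17.9% of all at day 1 and 1 of 5 against 25.1% at day 2. Its scores there were low, 2.78 and 1.81. At day 7 both lists held the Anpep position and nothing else, with 0 of 1 absent (28.5% of all) and 0 of 1 added (41.1%). The position 6.31 kb upstream of Mesp2, between both genes, was called only in knockdown MEF without doxycycline, at day 0 (2.14), day 1 (3.81) and day 2 (4.00). Knockdown lists and lists without knockdown were written in different forms, so a difference between them cannot be told apart from one in processing.

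Genes that act before, after or beside Mesp1 and Mesp2 were counted in the floxed EB as summits within 50 kb of each gene. Around Mesp1 lay 9 and 7 summits without 4OHT, against 3 and 3 with it. Around Mesp2 lay 9 and 8, against 2 and 2. Over all 19472 protein-coding genes with summits, 29.5% had fewer in both samples with 4OHT than in both without it, 1.46% had more in both, and the median difference was −0.50 summits. The counts below are read beside these shares.

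Of 20 regulators of Mesp1 and Mesp2, 12 had fewer summits in both samples with 4OHT, 1 had more and 7 overlapped, with a median difference of −2.0. Tbx6, a T-box factor of the presomitic mesoderm, had 8 and 9 without 4OHT, against 6 and 6 with it. Eomes, a T-box factor of the primitive streak, had 8 and 6 without it and 4 and 4 with it. Both T-box genes had groups that did not overlap. Lef1, a factor of Wnt signalling, had 10 and 6 against 5 and 5, and Wnt3a, a Wnt ligand, had 8 and 7 against 4 and 6. Cdx2, a homeodomain factor of the posterior embryo, had 7 and 6 against 4 and 4. Nodal, a ligand of mesoderm induction, had 5 and 6 against 4 and 6, so its groups overlapped. The regulator with more summits was Rbpj, the DNA-binding factor of Notch signalling, with 1 and 2 against 3 and 4; it is named because it was the only one, after its values were seen.

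Of 16 targets of Mesp1 in heart and vessel, 12 had fewer summits in both samples with 4OHT, none more and 4 overlapped, with a median difference of −1.75. Gata4, a cardiac zinc-finger factor, had 9 and 7 without 4OHT and 4 and 5 with it. Foxc2, a forkhead factor of mesoderm and vessels, had 8 and 7 against 4 and 4, and Snai1, a repressor active as mesoderm cells leave the epithelium, had 7 and 6 against 3 and 3. These genes had groups that did not overlap. The endogenous Etv2 gene had 6 and 6 against 4 and 3. Hand2, a basic helix-loop-helix factor of the heart, had 6 and 8 against 6 and 7, and Smarcd3, a SWI/SNF subunit of the heart, had 5 and 3 against 3 and 5, so both overlapped.

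Of 16 segmentation partners of Mesp2, 3 had fewer summits in both samples with 4OHT, 2 had more and 11 overlapped, with a median difference of −0.250. This count of 3 of 16 lies below the 29.5% of all genes, but with equal list lengths it was 2 of 16, against 11% of all genes, so the order depends on list length. Hes7, the oscillating repressor of the segmentation clock, had 11 and 8 without 4OHT and 10 and 10 with it. Dll3, a Notch ligand, had 7 and 7 against 8 and 7, and Epha4, an Eph receptor at somite boundaries, had 4 and 2 against 4 and 3. Efnb2, an ephrin, had 5 and 3 against 6 and 6, and Tbx18, a T-box factor of the anterior somite, had 4 and 3 against 5 and 6; these were the 2 genes with more. Tcf15, a basic helix-loop-helix factor of somites, had 4 and 3 against 5 and 4. The difference between this list and the others was not tested.

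**Figure D4:**
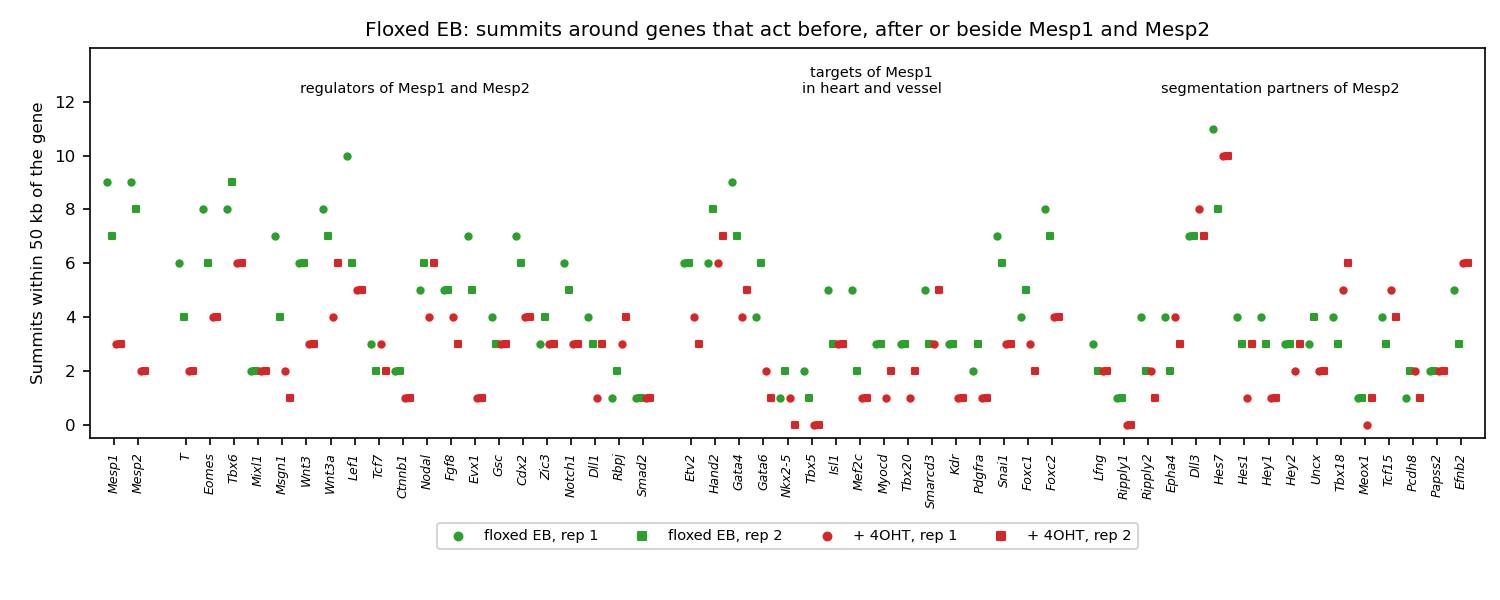
Summits within 50 kb (vertical axis) of Mesp1, Mesp2 and 52 genes of 3 lists in the 4 floxed EB samples, green without and red with 4OHT, circles replicate 1 and squares replicate 2. Red points lie below both green points for 12 of 20 regulators, 12 of 16 targets and 3 of 16 segmentation partners.

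Calls at the starts of these genes were compared where the promoter table gave a start, for 39 of 52 genes. Over all 17274 protein-coding genes with a start in the table, 58.2% had a summit within 1 kb of a start in both floxed lists without 4OHT; of these, 89.1% had one in both lists with 4OHT and 4.56% in neither. Among the regulators, 13 of 16 had one in both lists without 4OHT, and 10 of these in both with it. For the targets this was 7 of 11, of which 5 were in both with 4OHT. For the segmentation partners it was 10 of 12, of which 6 were in both. The genes whose start was in both lists without 4OHT and in neither with it were 1 regulator, Msgn1, a factor of presomitic mesoderm, and 2 segmentation partners, Ripply1, a repressor that limits Tbx6, and Dll3. These 3 were named after their values were seen. The starts of Mesp1 and Mesp2 themselves were called with 4OHT.

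The genes whose summit counts were most like those of the Mesp window over the 19 lists were ranked by Pearson correlation of summits within 50 kb divided by list length, among 19834 genes. They were Elf3 (r = 0.90), Pts (0.87), Gmeb2 (0.87), Gm39147 (0.85) and Itpkb (0.84). The lists share depth and processing form within a cell kind, so these values are a description. The 4 floxed lists were part of the ranking, so lower counts with 4OHT in these genes are no separate result. Itpkb, an inositol-trisphosphate kinase, had 7 and 8 in the floxed EB without 4OHT, against 3 and 4 with it. Elf3, an ETS factor of epithelia, had 3 and 3 against 1 and 1.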

How the data were processed

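Reads were aligned with Bowtie2 2.2.4, MACS2 and HOMER were used and the build was mm10, per the submitters' processing notes; which tool did which step, trimming, duplicates, transposase shift and blacklists are not given in the sources used here. The deposited files hold summits with a score that the authors give as −log10 of the q value; the lowest is 1.30, a q of 0.05. Read depth was not analysed here. In the knockdown and floxed lists 0 scores have over 6 digits, against 27.6% to 55.9% elsewhere, and the floxed lists have at most 1 summit per peak, against up to 190. Summits on chromosomes 1 to 19 and X were joined within 250 bp over all 19 lists with Python 3.11.15 and numpy 2.4.6, tested on simulated data. The simulated sites lay much further apart than 250 bp, so divided or chained positions were not tested. Gene intervals and starts came from RefSeq tables (GRCm38.p6), with a start for 17274 of 21631 protein-coding genes, so some positions counted as away from starts lie at a start. A position was absent or added by list membership, without a test. Alternatives were joining at 100 and 500 bp, windows of 25 and 100 kb, a score of at least 5, equal list lengths, and for genes 10 kb. Members and gene lists were chosen with earlier results of these data known. Named were the genes overlapping the window, up to 6 genes per list with the most floxed summits and the 5 most similar genes. Whether other promoters hold the printed motifs was counted over the whole table.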

Additional observations from a re-analysis of the deposited data

How the results depend on the processing

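In the floxed EB, the mean difference in window summits was −6.00 (with minus without 4OHT), −5.0 with a score of at least 5, −7.00 with a 100-kb window and −2.50 with equal list lengths; leaving out a replicate number gave −7.00 to −5.0. Positions added with 4OHT were 0, and 1 with equal list lengths, without replicate 1 or without replicate 2. The 1 without replicate 2 was in Mesp2, whose start was called in all 4 floxed lists. The replicate numbers are not stated to pair samples; the mean difference within same-numbered samples (replicate block) was −6.00. No test was made, so no call was changed by the pairing. Positions absent with 4OHT stayed above 0 under every alternative run, from 4 to 8. The 8, without replicate 2, counts the divided Mesp2 start as absent, although a summit with 4OHT lay in the neighbouring position. Joining at 500 bp gave 15 positions in place of 16 and 7 in EB lists only in place of 8, since the Mesp2 start positions were joined. The other counts run stayed as they were. The share of positions absent with 4OHT was not among these counts. It would be lower, since the joined Mesp2 start was called in both floxed groups. Joining at 100 bp gave 28 positions, 13 in EB lists only and 10 in MEF lists only; in EB 4 absent and 3 added with doxycycline, and 5 absent and 2 added in Flk1+ cells; in MEF 2 absent at day 1; in knockdown MEF 3 added at day 1 and 3 at day 2, and at day 7 1 absent and 1 added. Equal list lengths gave 5 positions, 3 in EB lists only, 2 in MEF lists only and 0 in both. In MEF they gave 0 absent at day 2, at day 7 0 absent and 1 added, and in Flk1+ cells 0 absent and 1 added. In knockdown MEF they gave 2 added at day 1. The 0 absent in MEF at day 7 was fixed beforehand and says nothing about loss. Cut from 62028 summits to the 18418 of day 7, the uninduced list kept no summit of the window. Its best window summit (18.34) scored as high as or higher than only 66.6% of that list. The positions added at day 7 and in Flk1+ MEF were called in the whole uninduced list. Equal list lengths gave fewer summits with 4OHT for 5 regulators, 6 targets and 2 segmentation partners, against 11% of all genes. A 10-kb gene window gave 7 targets and 1 segmentation partner, against 17.4%. A score of at least 5 gave 2 positions in MEF lists only, 6 absent in Flk1+ EB, 5 absent in Flk1+ MEF, and in knockdown MEF 0 added at day 1 and 1 absent at day 2. The 100-kb window gave 7 positions in both kinds; in EB 1 added with doxycycline; in MEF 2 absent at day 1, 7 at day 2, 9 at day 7 and 5 in Flk1+ cells; in knockdown MEF 6 absent at day 1 and 2 added at day 2. The 25-kb window gave 3 absent at day 7 and 1 in Flk1+ MEF. List length limits every count, since a position missing from a short list may be open below the threshold.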
